A study of Homo sapiens with 4 samples.

Results

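SR proteins, heterogeneous nuclear ribonucleoproteins (hnRNPs) and a set of other splicing regulators were followed in HCT116 cells that carry a CRISPR lesion in TOP3B. The members were the rows of the count table named SRSF or HNRNP with their family letter or number, without the 122 rows named as pseudogene copies, plus 19 regulators listed by name. They came to 49 genes of 35820 rows, made up of 12 SR proteins, 18 hnRNPs, 7 factors of the 3′ splice site or related to SR proteins, and 12 regulators of tissue-specific splicing. Of these, 48 passed the filter on low counts and were tested. SRSF12, the member that did not pass, had 1 count in WT replicate 1 and 0 in the other libraries.

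HCT116 is a human colon carcinoma line. The knockout (KO) group held 2 libraries of clone E2-4, made with a guide RNA against exon 2 of TOP3B, and the wild-type (WT) group held 2 libraries of HCT116 without that lesion. All 4 libraries were ribosomal RNA-depleted total RNA from untreated cultures, read as pairs of 150 bp reads. The KO group is 1 clone, so clone and genotype cannot be told apart, and nothing in the labels says that replicates were separate cultures, so p-values measure only the spread between these libraries, which may be technical.

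SR proteins bind exonic enhancers in pre-mRNA through RNA recognition motifs and recruit spliceosome components through a domain rich in arginine and serine. The hnRNPs coat nascent transcripts, and many of them repress nearby splice sites, so that exon choice depends on the balance between the 2 families and on regulators that only some tissues express. Many of these genes limit their own protein level by splicing in a poison exon or a retained intron, which sends the transcript to nonsense-mediated decay (NMD). The data are sums per gene and hold no information on which exons were used.

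The KO libraries held 10450048 and 16143634 estimated counts, and the WT libraries 15141919 and 11750516. Levels below are CPM, the count divided by the library total and its TMM factor. TOP3B, the targeted gene, was at 43.9 and 54.7 CPM in KO and 57.1 and 66.5 CPM in WT, so this level does not check the knockout. Of 9 colon epithelial markers, EPCAM, CDH1, KRT8 and KRT18 were above 1 CPM in every library, and KRT20 and CEACAM5 were at 0 in all. VIL1 reached at most 0.08 CPM and LGALS4 at most 0.25 CPM. CDX2 was at 5.06 and 0 CPM in KO and 3.54 and 3.60 CPM in WT. The epithelial markers summed to 316.3 to 368.7 CPM in KO and 341.0 to 372.6 CPM in WT. The 7 fibroblast markers summed to 0.633 to 1.23 CPM in KO and 1.31 to 1.72 CPM in WT, the 5 leukocyte markers to 1.23 to 1.45 CPM in KO and 1.23 to 2.62 CPM in WT, the 5 neuronal markers to 2.17 to 4.79 CPM in KO and 2.00 to 3.11 CPM in WT, and the 3 endothelial markers to 0 CPM in KO and 0.0771 to 0.0819 CPM in WT. CD68 alone gave the leukocyte sum, and SYT1, at 1.70 to 4.34 CPM, gave most of the neuronal sum. WT replicate 1 stood apart, with a TMM factor of 0.858 against 1.04 to 1.06 in the other libraries. It was the highest of the 4 libraries for 24 of 48 tested members (50.0%), against 30.6% of all 12269 tested genes. The members' median distance between replicates was 0.10 on the log2 scale in KO and 0.26 in WT, against 0.21 and 0.26 over all tested genes. For the members the KO pair was the closer one. The members' median level was 269.0 CPM, against 20.0 CPM over tested protein-coding genes, and these distances were not matched for level. Values without WT replicate 1, and without WT replicate 2, are given below for many of the members that they move.

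The promoters of 3 members are shown for the sequence around their starts: SRSF6, with the lowest fold change, and HNRNPAB and PTBP3, which had the smallest p among those higher in KO. They were read from RefSeq (GRCh38.p14) on the strand of the gene, as the 250 bases before the annotated start, with CpG dinucleotides in capitals. SRSF6 lies on chromosome 20 (chr20:43457646-43457895, plus strand), HNRNPAB on chromosome 5 (chr5:178204283-178204532, plus strand) and PTBP3 on chromosome 9 (chr9:112333027-112333276, minus strand).
SRSF6: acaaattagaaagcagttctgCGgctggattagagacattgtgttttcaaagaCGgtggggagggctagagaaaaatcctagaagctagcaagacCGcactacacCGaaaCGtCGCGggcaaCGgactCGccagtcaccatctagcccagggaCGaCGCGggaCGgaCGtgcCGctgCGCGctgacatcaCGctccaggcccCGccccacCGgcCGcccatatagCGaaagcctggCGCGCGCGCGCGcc
HNRNPAB: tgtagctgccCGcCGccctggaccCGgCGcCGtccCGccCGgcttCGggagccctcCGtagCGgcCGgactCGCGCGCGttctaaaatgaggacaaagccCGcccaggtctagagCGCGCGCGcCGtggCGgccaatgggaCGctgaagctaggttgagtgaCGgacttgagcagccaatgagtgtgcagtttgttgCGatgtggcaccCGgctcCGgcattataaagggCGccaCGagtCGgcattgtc
PTBP3: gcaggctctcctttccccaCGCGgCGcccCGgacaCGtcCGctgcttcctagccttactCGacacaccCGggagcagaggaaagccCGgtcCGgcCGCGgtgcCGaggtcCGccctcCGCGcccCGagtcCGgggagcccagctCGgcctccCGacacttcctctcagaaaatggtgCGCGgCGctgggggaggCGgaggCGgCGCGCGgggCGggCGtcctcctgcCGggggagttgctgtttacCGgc
These windows held 28, 30 and 32 CpG. Over the 42 members with a promoter in that table the median was 26.0 CpG in 250 bases, against 11 over all 27305 promoters. All promoters, here and in the shares that follow, were neither limited to tested genes nor matched to the members by level. The G and C content of the 42 windows had a median of 65.8%, against 58.0% over all promoters. In these 250 bases before the start, the strand of the gene held more G than C in 27 of 42 members (64.3%) and in 47.9% of all promoters. SRSF6 and PTBP3 held more C than G, and HNRNPAB more G than C. On either strand the Sp1 motif GGGCGG was present in 27 of 42 members (64.3%) and 42.3% of all promoters, CCAAT in 17 (40.5%) and 33.0%, and TATAAA in 5 (11.9%) and 11.1%. GGGCGG was found in all 3 windows printed above, and TATAAA and CCAAT in that of HNRNPAB alone among them. Windows of members with several annotated starts are the first listed, and these letters are a description of sequence, not of binding.

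In KO against WT, RBFOX2 stood lowest in p and most other splicing regulators lay near 0. For 28 of 48 members the log2 fold change was within 0.25 of 0 (58.3%), against 47.6% of all tested genes, and 1 was past 1 in size, against 9.46% of all. The members' median level, not scaled by gene length, was 269.0 CPM, against 20.0 CPM over tested protein-coding genes, and the part of that higher level in their smaller fold changes was not tested. RBFOX2, a regulator that binds GCAUG in introns, stood at 82.9 ± 17.8 CPM in KO and 156.2 ± 24.7 CPM in WT (SD, n = 2 each), and it was the 1 member called by DESeq2. The main test, edgeR's quasi-likelihood test with Benjamini-Hochberg adjustment over all tested genes, called 0 members and 1 gene in all (0.00815%), and limma-voom called 0 members. DESeq2 called 1 member, lower in KO, where it called 1.38% of all genes, 0.89% lower and 0.49% higher. At an unadjusted p under 0.05 edgeR gave 8 members (16.7%), 5 lower and 3 higher in KO, against 11.2% of all tested genes, 6.21% lower and 4.97% higher. The 2 groups did not overlap for 25 members, with KO below WT for 15 and above it for 10, against 47% of all tested genes, 23.5% in each direction. These shares are read here as a description of the list, and no test was made of it.

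**Figure D1:**
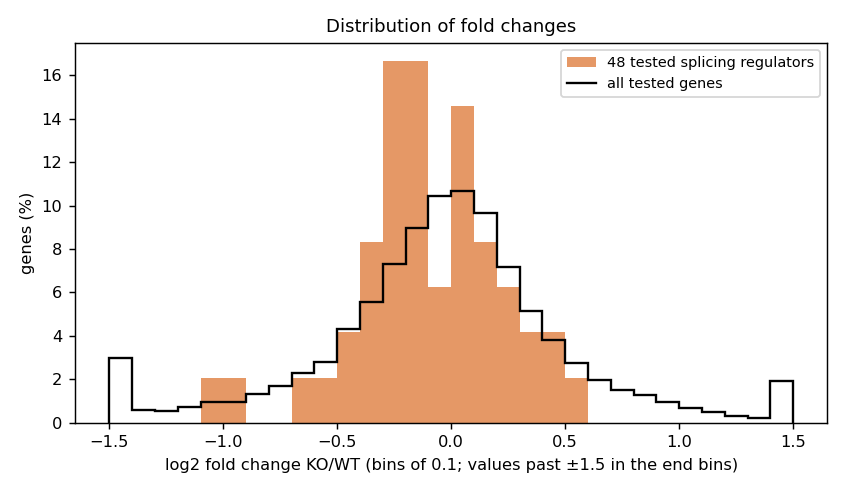
Share of genes (%, vertical axis) in bins of log2 fold change, KO over WT (horizontal axis), for 48 tested splicing regulators (filled) and all 12269 tested genes (line). The members' values run from -1.01 to 0.52, and 28 of 48 lie within 0.25 of 0.

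The SR proteins are the family that gives the list its name, and 11 of the 12 were tested. Their median log2 fold change was -0.17, with 8 of 11 below 0, against -0.01 over all tested genes. SRSF6, known to regulate exon choice in the tau transcript, was at 20.3 and 14.2 CPM in KO and 28.4 and 40.7 CPM in WT. Both KO values were under both WT values, with a log2 fold change of -1.01 (SE 0.28), an unadjusted p of 0.0152 and an adjusted p of 0.361 by edgeR, and an adjusted p of 0.148 by DESeq2. Its counts, 225 and 241 in KO and 368 and 497 in WT, were among the lower ones of the list, and WT replicate 2 was the higher WT library, so its log2 fold change was -1.24 without WT replicate 1 and -0.71 without WT replicate 2. It was -1.28 without KO replicate 1 and -0.76 without KO replicate 2. SRSF8, an intronless relative of SRSF2, was at 9.13 and 9.28 CPM in KO and 14.0 and 11.6 CPM in WT (log2 fold change -0.48, SE 0.23; edgeR adjusted p = 0.497). SRSF4, another SR protein with a long arginine-serine domain, went the other way, at 52.1 and 62.2 CPM in KO and 42.5 and 47.8 CPM in WT (0.34, SE 0.16; edgeR adjusted p = 0.493). For SRSF8 and SRSF4 the groups did not overlap, and neither passed.

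For the SR proteins with the most counts WT replicate 1 was often the high library. SRSF3, the smallest SR protein and an adaptor for mRNA export, was at 900.5 and 853.9 CPM in KO and 1396 and 921.9 CPM in WT (log2 fold change -0.40, SE 0.22; edgeR adjusted p = 0.530). SRSF7, its close relative with a zinc knuckle, was at 642.9 and 671.1 CPM in KO and 885.9 and 661.4 CPM in WT (-0.24, SE 0.18; edgeR adjusted p = 0.615). Without WT replicate 1 the values were -0.07 for SRSF3 and -0.01 for SRSF7. Leaving out WT replicate 2 put SRSF3 at -0.66 and SRSF7 at -0.42. SRSF1, the founding SR protein, was at 1508 and 1556 CPM in KO and 1960 and 1502 CPM in WT, and its groups overlapped. Its log2 fold change was -0.18, or 0.03 without WT replicate 1 and -0.34 without WT replicate 2. SRSF2, SRSF5, SRSF9, SRSF10 and SRSF11 had log2 fold changes between -0.17 (SRSF11) and 0.10 (SRSF2), with overlapping groups in all 5. The median of the SR proteins was -0.01 without WT replicate 1 and -0.28 without WT replicate 2.

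**Figure D2:**
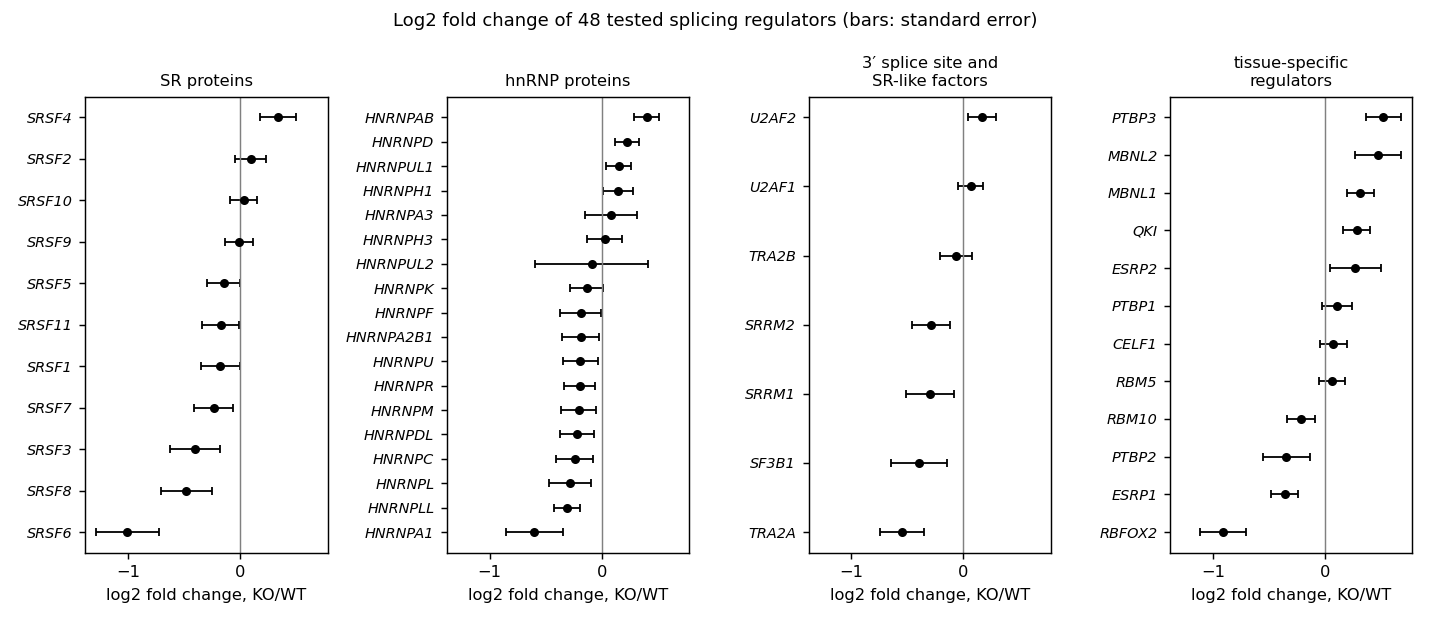
Log2 fold change, KO over WT (horizontal axis), of the 48 tested members in 4 panels by role, each point with its standard error. SRSF6 (-1.01), RBFOX2 (-0.91) and HNRNPA1 (-0.60) lie lowest, and PTBP3 (0.52), MBNL2 (0.48) and HNRNPAB (0.40) highest.

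All 18 hnRNPs were tested, with a median log2 fold change of -0.19 and 12 of 18 below 0. HNRNPAB, which binds AU-rich RNA and associates with RNA-editing complexes, was at 130.8 and 134.3 CPM in KO and 97.1 and 103.3 CPM in WT. The groups did not overlap and replicates were close, with a log2 fold change of 0.40 (SE 0.11), an unadjusted p of 0.0152 and an adjusted p of 0.361 by edgeR, and an adjusted p of 0.323 by DESeq2. HNRNPD, its paralogue, which promotes decay of AU-rich mRNA, was at 135.7 CPM in both KO libraries and at 114.7 and 117.0 CPM in WT (0.23, SE 0.11; edgeR adjusted p = 0.496). HNRNPDL, a further relative of these genes, had -0.22 (SE 0.15; edgeR adjusted p = 0.601), at 1117 and 1185 CPM in KO and 1467 and 1207 CPM in WT. HNRNPAB and HNRNPD were higher in both KO libraries and HNRNPDL lower in both, with none of the 3 past the threshold. Without WT replicate 1 the values were 0.36 for HNRNPAB, 0.21 for HNRNPD and -0.07 for HNRNPDL. Leaving out WT replicate 2 put them at 0.46, 0.26 and -0.34.

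HNRNPLL, which promotes exon skipping in lymphocytes and neurons, was at 138.0 and 135.9 CPM in KO and 178.0 and 161.0 CPM in WT (log2 fold change -0.31, SE 0.11; unadjusted p = 0.0436 and adjusted p = 0.441 by edgeR). Its paralogue HNRNPL, which binds CA repeats, was at 944.8 and 860.6 CPM in KO and 1268 and 929.4 CPM in WT (-0.28, SE 0.19; edgeR adjusted p = 0.582). The HNRNPLL groups did not overlap and those of HNRNPL did, and without WT replicate 1 HNRNPL was at -0.04 and HNRNPLL at -0.23. With WT replicate 2 left out instead, HNRNPL was at -0.48 and HNRNPLL at -0.37.

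HNRNPA1, a general repressor of exons that competes with SR proteins, held the most counts of any member. It was at 2722 and 2558 CPM in KO and 4903 and 3101 CPM in WT, a log2 fold change of -0.60 (SE 0.25; edgeR adjusted p = 0.465; DESeq2 adjusted p = 0.278). Both KO values were under both WT values, but the WT libraries were farther from each other than WT replicate 2 was from KO. The value was -0.23 without WT replicate 1 and -0.88 without WT replicate 2. The 74 rows named as HNRNPA1 pseudogenes held 0.344% of the counts of the family, so little of its estimate was assigned to those copies. HNRNPC, which binds uridine tracts, HNRNPU, a scaffold-associated protein, HNRNPK, which binds cytidine-rich RNA, and HNRNPR also lay lower in both KO libraries, at log2 fold changes from -0.13 (HNRNPK) to -0.24 (HNRNPC) and with edgeR adjusted p from 0.585 (HNRNPC) to 0.722 (HNRNPK). Without WT replicate 1 the values were -0.08 for HNRNPC, -0.06 for HNRNPU, -0.09 for HNRNPR and -0.15 for HNRNPK, and HNRNPK was at -0.02 without KO replicate 1 and 0.02 with total-count scaling. Leaving out WT replicate 2 gave -0.37 for HNRNPC, -0.30 for HNRNPU, -0.28 for HNRNPR and -0.10 for HNRNPK. HNRNPH1, which binds G-rich tracts, and HNRNPUL1, a relative of HNRNPU, lay higher in both KO libraries at 0.15 each, and HNRNPH1 was at 0.04 without KO replicate 2. The 7 hnRNPs with overlapping groups were HNRNPL, given above, HNRNPA2B1, HNRNPA3, HNRNPF, HNRNPH3, HNRNPM and HNRNPUL2. One of them, HNRNPUL2, had 9 and 20 counts in KO and 16 and 11 in WT, while the readthrough gene HNRNPUL2-BSCL2, which covers it on the same strand, had 1189 and 1641 in KO and 1719 and 1237 in WT, so the estimate of HNRNPUL2 itself is uncertain. The median of the hnRNPs was -0.05 without WT replicate 1 and -0.29 without WT replicate 2.

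The factors that recognise the 3′ splice site and the proteins related to SR proteins had a median log2 fold change of -0.29 with 5 of 7 below 0, and 0 passed in edgeR or DESeq2. TRA2A, a splicing activator that binds GAA-rich enhancers, was at 52.3 and 55.1 CPM in KO and 91.8 and 64.9 CPM in WT (-0.54, SE 0.20; unadjusted p = 0.0401 and adjusted p = 0.432 by edgeR). Its paralogue TRA2B was at 866.5 and 915.2 CPM in KO and 1017 and 848.1 CPM in WT (-0.07, SE 0.14; edgeR adjusted p = 0.873). The TRA2A groups did not overlap, though WT replicate 1 was far above WT replicate 2, while those of TRA2B overlapped. TRA2A was at -0.27 without WT replicate 1 and -0.76 without WT replicate 2.

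U2AF1 and U2AF2 form the heterodimer that binds the AG and the polypyrimidine tract at the 3′ splice site. U2AF2 was at 445.1 and 391.7 CPM in KO and 362.6 and 383.2 CPM in WT (0.17, SE 0.12; edgeR adjusted p = 0.618), and U2AF1 at 185.8 and 198.0 CPM in KO and 178.1 and 188.7 CPM in WT (0.07, SE 0.11; edgeR adjusted p = 0.829). The U2AF2 groups did not overlap, those of U2AF1 did, and neither gene passed. SF3B1, the U2 snRNP subunit that holds the branch point, was at 205.0 and 214.3 CPM in KO and 343.4 and 207.4 CPM in WT (-0.39, SE 0.25; edgeR adjusted p = 0.567). WT replicate 1 alone was high for SF3B1, and without it the value was 0.02. With WT replicate 2 left out instead, SF3B1 was at -0.70. SRRM1 and SRRM2, large serine-arginine matrix proteins that act as coactivators, had -0.30 (SE 0.21; edgeR adjusted p = 0.608) and -0.29 (SE 0.17; edgeR adjusted p = 0.549). SRRM1 was at 51.9 and 44.2 CPM in KO and 69.0 and 48.8 CPM in WT, with a log2 fold change of -0.03 without WT replicate 1, and SRRM2 at 25.8 and 27.8 CPM in KO and 29.7 and 35.8 CPM in WT. The groups overlapped for SRRM1 and not for SRRM2. Leaving out WT replicate 2 put SRRM1 at -0.51 and SRRM2 at -0.14. The median of the 7 genes was 0.02 without WT replicate 1 and -0.18 without WT replicate 2.

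The regulators of tissue-specific splicing lay on both sides of 0, with a median log2 fold change of 0.09 and 4 of 12 below 0. They held 4 of the 8 members with an unadjusted p under 0.05, which is 33.3% of the 12, against 11.2% of all tested genes. Within 0.25 of 0 lay 4 of 12 (33.3%), against 47.6% of all tested genes. RBFOX2 was at 70.3 and 95.4 CPM in KO and 173.6 and 138.7 CPM in WT. Both KO libraries were below both WT libraries, with a log2 fold change of -0.91 (SE 0.20), an unadjusted p of 0.00644 and an adjusted p of 0.296 by edgeR. The adjusted p was 0.0166 by DESeq2, which made RBFOX2 lower in KO by that tool alone of those run on all 4 libraries. In DESeq2 it did not pass without WT replicate 1 (-0.74), without KO replicate 1 (-0.69) or without KO replicate 2 (-1.14). It passed without WT replicate 2 (-1.06), as did other members, HNRNPA1 and SRSF3 among them. RBFOX2 lies on chromosome 22, as TOP3B does. The 311 tested genes of that chromosome had a median of 0.08, and the 10 tested genes nearest in order to RBFOX2 had a median of 0.06, with 5 below 0 and a range from -1.26 to 1.25.

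ESRP1 and ESRP2 promote epithelial exon choices, often on transcripts that RBFOX2 and QKI also regulate. ESRP1 was at 114.5 and 118.1 CPM in KO and 158.0 and 140.3 CPM in WT (log2 fold change -0.36, SE 0.12; unadjusted p = 0.0304 and adjusted p = 0.410 by edgeR). ESRP2 was at 47.0 and 32.2 CPM in KO and 35.0 and 30.5 CPM in WT (0.27, SE 0.23; edgeR adjusted p = 0.652). The groups of ESRP1 did not overlap and those of ESRP2 did, and leaving out KO replicate 1 put ESRP2 at -0.02. QKI, a STAR-family protein associated with mesenchymal splicing, was at 121.4 and 135.5 CPM in KO and 104.0 and 107.1 CPM in WT (0.28, SE 0.12; edgeR adjusted p = 0.467). Both KO libraries of QKI were above both WT libraries.

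MBNL1 and MBNL2 bind UGCU-rich RNA and drive the switch from fetal to adult exons. MBNL1 was at 718.4 and 783.2 CPM in KO and 585.3 and 619.7 CPM in WT (0.32, SE 0.12; unadjusted p = 0.0479 and adjusted p = 0.445 by edgeR). MBNL2 was at 167.8 and 175.1 CPM in KO and 99.4 and 146.9 CPM in WT (0.48, SE 0.21; edgeR adjusted p = 0.475). Both paralogues were higher in both KO libraries, and without WT replicate 1, the lower WT library for both, their values were 0.28 and 0.22. Leaving out WT replicate 2 put MBNL1 at 0.37 and MBNL2 at 0.80.

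PTBP1, PTBP2 and PTBP3 bind polypyrimidine tracts, and PTBP1 holds down PTBP2 and PTBP3 by skipping exons of their transcripts. PTBP3 was at 70.6 and 77.7 CPM in KO and 46.5 and 56.8 CPM in WT (0.52, SE 0.16; unadjusted p = 0.0201 and adjusted p = 0.382 by edgeR; DESeq2 adjusted p = 0.336). PTBP2, the neuronal paralogue, was at 30.0 and 37.8 CPM in KO and 37.4 and 48.8 CPM in WT (-0.34, SE 0.21; edgeR adjusted p = 0.556). PTBP1 was at 364.9 and 323.9 CPM in KO and 342.7 and 296.9 CPM in WT (0.11, SE 0.14; edgeR adjusted p = 0.765). The groups did not overlap for PTBP3, and overlapped for PTBP1 and PTBP2, which without WT replicate 1 were at 0.21 and -0.52. With WT replicate 2 left out instead, PTBP1 was at 0.02 and PTBP2 at -0.12. RBM10, an X-linked regulator of cassette exons, lay lower in both KO libraries at -0.21 (SE 0.12; edgeR adjusted p = 0.538), or -0.11 without WT replicate 1 and -0.29 without WT replicate 2. Its relative RBM5 had 0.07, and CELF1, which binds GU-rich RNA, 0.08, with overlapping groups.

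**Figure D3:**
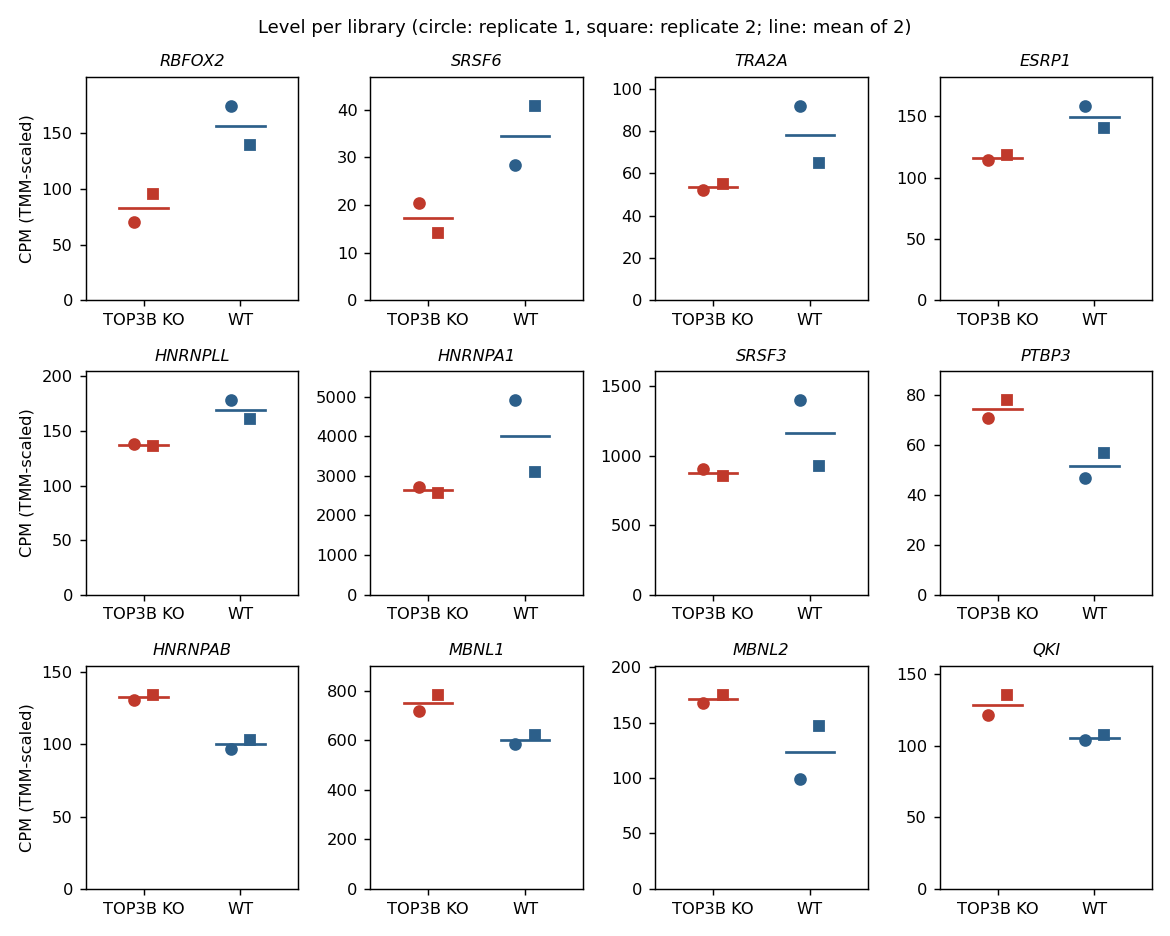
CPM per library (vertical axes from 0) for 12 members, KO left of WT, with circles for replicate 1, squares for replicate 2 and a line at the mean of 2 libraries. RBFOX2, SRSF6 and ESRP1 are lower in both KO libraries, PTBP3, HNRNPAB, MBNL1 and QKI are higher in both, and for HNRNPA1 and SRSF3 WT replicate 1 lies far above the other 3 libraries.

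The list as a whole had a median log2 fold change of -0.16 with 29 of 48 members below 0, against 51.5% of all tested genes, and that median depended on WT replicate 1. Without it, the median was -0.00075 with 24 of 48 below 0, the fold change was smaller in size for 33 of 48 members, and 9 changed sign. Without WT replicate 2 the median was -0.22 with 29 of 48 below 0, and the median of all genes tested was 0.02. In that fit 24 of 48 members (50.0%) had an unadjusted p under 0.05, against 20.9% of all genes tested. These fits leave 1 WT library, whose spread is taken to be that of the KO pair. The small noncoding RNA RN7SK also stood higher in WT replicate 1, at 33472 and 30610 CPM in KO and 68284 and 44264 CPM in WT. With RN7SK, SNORD3A and RMRP left out of the fit, the members' median was -0.15. With scaling by the total count alone, a setting chosen after seeing the data, the median was 0.0093, but that scaling moved the median of all tested genes by over 0.1, to 0.14. Relative to all tested genes the members' median was -0.14 with TMM factors, -0.13 with total-count scaling and -0.01 without WT replicate 1. In raw shares, the members took 2.68% and 2.76% of all counts in KO and 2.77% and 2.73% in WT.

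**Figure D4:**
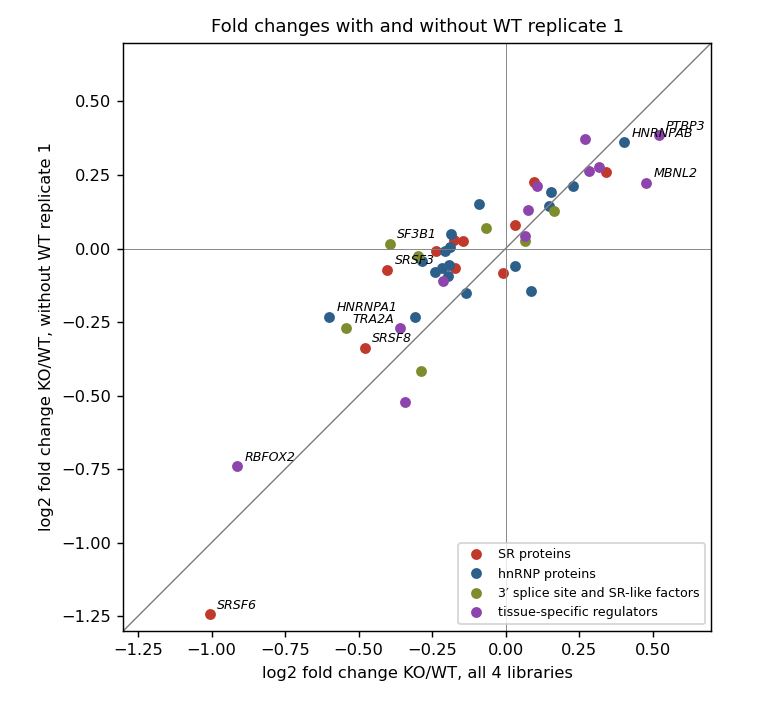
Log2 fold change, KO over WT, of the 48 tested members with all 4 libraries (horizontal axis) and without WT replicate 1 (vertical axis), coloured by role, with the line of equality. SF3B1, SRSF3 and HNRNPA1 move from -0.39, -0.40 and -0.60 toward 0 (0.02, -0.07 and -0.23), while RBFOX2 (-0.74) and SRSF6 (-1.24, or -0.71 without WT replicate 2 in its place) stay far below it. Without WT replicate 2, which is not drawn, SF3B1, SRSF3 and HNRNPA1 were at -0.70, -0.66 and -0.88.

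Genes that act with these regulators showed 0 calls by either tool with all 4 libraries. Without WT replicate 2 the medians of the related lists ran from -0.13 (core spliceosome) to 0.12 (NMD factors), against 0.02 over all genes tested. Of the kinases, phosphatase subunits and importer that control the phosphorylation and nuclear entry of SR proteins, 10 of 12 were tested, with a median log2 fold change of -0.01 and 0 at an unadjusted p under 0.05, against 11.2% of all tested genes. The smallest p belonged to the kinases CLK4 (0.34, SE 0.18; edgeR adjusted p = 0.524) and CLK2 (-0.21, SE 0.16; edgeR adjusted p = 0.622) and the phosphatase subunit PPP1CC (0.16, SE 0.11; edgeR adjusted p = 0.609). Of the core spliceosome list of 38 genes 34 were tested, with a median of -0.04, 20 of 34 below 0 and 1 (2.94%, against 11.2% of all tested genes) at an unadjusted p under 0.05. SNRPD1, SNRPG and SNRPE, Sm proteins of the snRNP ring, were lowest in p, at -0.73 (SE 0.28; edgeR adjusted p = 0.444), -0.68 (SE 0.27; edgeR adjusted p = 0.452) and -0.56 (SE 0.24; edgeR adjusted p = 0.474). SNRPD1 was at 144.8 and 155.2 CPM in KO and 317.4 and 181.4 CPM in WT, so WT replicate 1 was again the high library. The median of the core list was -0.13 without WT replicate 2 and 0.04 without WT replicate 1.

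Of 36 other RNA-binding regulators 30 were tested, with a median of -0.03 and 2 at an unadjusted p under 0.05 (6.67%, against 11.2% of all tested genes), both lower in KO. NONO, a paraspeckle protein, was at 147.2 and 156.5 CPM in KO and 215.7 and 226.3 CPM in WT (-0.54, SE 0.11; edgeR adjusted p = 0.274; DESeq2 adjusted p = 0.0513), and here the replicates of each group were close. TIA1, which binds uridine-rich RNA near 5′ splice sites, had -0.33 (SE 0.12; edgeR adjusted p = 0.424), and SON, a speckle scaffold, 0.30 (SE 0.12; edgeR adjusted p = 0.465). All 15 NMD factors were tested, with a median of 0.06 and 4 at an unadjusted p under 0.05 (26.7%, against 11.2% of all tested genes), 3 lower and 1 higher. UPF3B was at 65.5 and 71.5 CPM in KO and 95.3 and 89.3 CPM in WT (-0.43, SE 0.12; edgeR adjusted p = 0.372). UPF2, its partner in the decay complex, was at 18.4 and 15.9 CPM in KO and 25.2 and 27.4 CPM in WT (-0.61, SE 0.18; edgeR adjusted p = 0.373). SMG1, the kinase that phosphorylates UPF1, was at 188.2 and 221.9 CPM in KO and 161.7 and 152.1 CPM in WT (0.39, SE 0.13; edgeR adjusted p = 0.413). For these 3 genes the groups did not overlap and none passed.

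The members share a gene structure that bears on such decay. In GENCODE 29, 37 of the 48 tested members (77.1%) have at least 1 transcript annotated as an NMD target, against 47.5% of 10592 tested protein-coding genes. At least 1 retained-intron transcript is annotated for 37 members (77.1%), against 64.0% of tested protein-coding genes. The members have a median of 12.0 annotated transcripts, against 8.00, and a median genomic span of 22.9 kb, against 35.2 kb. Genes with more transcripts on record have more chances to hold 1 of either kind, so these shares describe the annotation and not the cells.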

How the data were processed

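The authors deposited estimated counts per gene, whole numbers, and RPKM of the same genes, for 2 KO and 2 WT libraries. Per the submitters' processing notes, Salmon 1.10.1 and the build hg19 were used; the annotation, the gene-level summary and filters are not stated there. The gene length implied by the RPKM deposited by the authors exceeded the longest GENCODE 29 transcript for 42 of 49 members, so levels were compared between libraries and not between genes, and RPKM were used for nothing else. Overlapping genes and close paralogues are uncertain where shared reads were divided.

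All rows were fitted with edgeR 4.0.16 (R 4.3.3, limma 3.58.1): filterByExpr, TMM factors, quasi-likelihood F-test on genotype, Benjamini-Hochberg adjustment over 12269 genes, threshold 0.05. The SE is the log2 fold change divided by the square root of F. DESeq2 1.42.0 (Wald test) gave an adjusted p for 13258 genes. A count of 3 in 1 library is 0.176 to 0.271 CPM, which covers counting error only. The script was tested on simulated data. Members and lists were chosen with earlier results of these data known. Members were named where they passed in either tool, were among the 5 of smallest edgeR p in their role group, belonged to a listed paralogue set or had a log2 fold change of at least 1 in size; other members are named as examples. In each related list the 3 of smallest p were named. All 49 members were matched by symbol to GENCODE 29 and 42 to RefSeq promoters. Alternatives were another normalization, filter and tool, leaving out each library, a replicate block, and, chosen after seeing the data, total-count scaling and DESeq2 without each library.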

Additional observations from a re-analysis of the deposited data

How the results depend on the processing

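The count of 0 members called by edgeR was the same under DESeq2 size factors, upper-quartile factors, TMM without 3 small noncoding RNAs, limma-voom, no filter, total-count scaling and the replicate block; it was 1 by DESeq2, and 0 to 7 over the fits without 1 library. Members at an unadjusted p under 0.05 numbered 8 (16.7%, against 11.2% of all genes). Without 1 library they numbered 2 (4.17%, against 7.02%) for KO replicate 1, 1 (2.08%, against 7.57%) for KO replicate 2, 5 (10.4%, against 8.71%) for WT replicate 1 and 24 (50.0%, against 20.9%) for WT replicate 2. The count over all genes was 1; it was 183 by DESeq2, 5 with upper-quartile factors, 34 with no filter, 42 with total-count scaling and 0 to 575 without 1 library. The upper ends of both ranges of calls, for members and for all genes, came from the fit without WT replicate 2. That fit tested 48 members and 13018 genes and left 1 WT library, so its calls rest on the spread of the KO pair. The members' median of -0.16 ran from -0.22 to -0.00075 without 1 library. Over those fits the medians ran from -0.28 to -0.01 for SR proteins, from -0.29 to -0.05 for hnRNPs, from -0.24 to 0.016 for the 3′ splice site group and from 0.07 to 0.17 for tissue-specific regulators. With total-count scaling these 4 medians were -0.0017, -0.011, -0.12 and 0.26, that of all members was 0.0093, that of the other RNA-binding regulators 0.14, and TRA2B had 0.10. Without 1 library SF3B1 ran from -0.70 to 0.016, TRA2B from -0.18 to 0.071 and ESRP2 from -0.022 to 0.52; the other 23 members that the naming rule picked kept their sign under the 12 settings tabulated, which do not include DESeq2 without each library. The cause was not tested, except that fits without 1 library have fewer samples. By DESeq2 without 1 library the log2 fold change of RBFOX2 ran from -1.14 to -0.69.

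The replicate numbers are shared between groups. Deviations of same-numbered libraries had a correlation of 0.06 across genes. With 2 libraries a group that value cannot show whether same-numbered libraries shared a culture or a preparation. With the replicate block edgeR called 0 members and 1 gene, 6 members had an unadjusted p under 0.05, and the members' median was -0.15. With 2 libraries a group and 3 counts at 0.176 to 0.271 CPM, low counts limit what can be said of SRSF12 and HNRNPUL2. For HNRNPUL2 the division of reads shared with HNRNPUL2-BSCL2 may also enter, which was not tested.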
